A study of Homo sapiens with 8 samples.

Results

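Heat shock transcripts of the cytosol and mitochondria were followed in LNCaP cells, an established line from a prostate cancer metastasis, after addition of the secreted matrix protein asporin (ASPN). The 10 genes were taken by name from the 36474 genes of the count table: HSPA1A, HSPA1B and HSPA8 of the HSP70 family, HSP90AA1 and HSP90AB1 of the HSP90 family, HSPH1 (an HSP110), DNAJB1 (a J-domain protein), HSPB1 (a small heat shock protein) and the mitochondrial pair HSPD1 and HSPE1. All 10 had counts in each of the 8 libraries and all 10 passed the low-count filter, which kept 21071 genes.

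Cells of every group had first been starved for 6 to 12 hours in medium without serum or calcium. Treatment with 100 ng/mL of recombinant human ASPN then lasted 0, 12 or 24 hours, and the time-0 group is the reference. RNA was taken at time 0 (2 libraries), after 12 hours (3 libraries) and after 24 hours (3 libraries). The labels call all of them ASPN-treated biological replicates plated in triplicate wells of 1 line, so p-values measure the spread between such wells. Cells kept in the medium for 12 or 24 hours with no ASPN were not analysed here, so hours in the medium and ASPN cannot be told apart in any of the comparisons. The second time-0 library carries the number 3 in the count table. Library totals ran from 73406825 to 96962135 counts, and values are given as CPM, the count in each library over its TMM-scaled total. The LNCaP markers KLK3, FOLH1, TMPRSS2 and HOXB13 had means of 965, 1800, 45.3 and 414 CPM at time 0. Fibroblast markers summed to 19.3 to 21.9 CPM, nearly all of it COL1A1, endothelial markers to 11.2 to 17.3 CPM, nearly all of it VWF, and leukocyte markers to at most 0.220 CPM. These 4 LNCaP markers rose by 24 hours (log2 changes of 0.31, 0.13, 0.26 and 0.21) and VWF fell (-0.38, adjusted p = 0.00175), and the part of this in the heat shock values was not tested.

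Heat shock proteins are chaperones that bind unfolded or partly folded proteins. HSP70 proteins bind exposed stretches with the help of J-domain proteins, which deliver clients and drive ATP hydrolysis, and of HSP110 proteins, which exchange the nucleotide. HSP90 proteins complete the maturation of clients such as steroid receptors and kinases, small heat shock proteins hold unfolded proteins without ATP, and HSP60 with its HSP10 lid folds proteins inside mitochondria. Many of these genes are under heat shock factor 1 (HSF1), which binds repeats of the unit GAA in alternating orientation, called heat shock elements.

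The sequence in front of the genes is shown as a description, and because 2 of them are near copies. Its relation to the changes of the members was not tested. RefSeq sequences for GRCh38.p14 were used, and all 10 genes had a promoter entry (16 start sites in all). Capitals mark a heat shock element, either 3 units (GAANNTTCNNGAA on either strand) or 2 units head to head (GAANNTTC). The first letter is the farthest from the start site. The 250 bases before the starts of HSPA1A (chr6:31815293-31815542, plus strand), HSPA1B (chr6:31827488-31827737, plus strand), HSPB1 (chr7:76302423-76302672, plus strand) and the second listed start of HSP90AA1 (chr14:102087045-102087294, minus strand) read as follows. In the HSP90AA1 sequence the second run of capitals is TTCNNGAA, 2 units tail to tail.
HSPA1A: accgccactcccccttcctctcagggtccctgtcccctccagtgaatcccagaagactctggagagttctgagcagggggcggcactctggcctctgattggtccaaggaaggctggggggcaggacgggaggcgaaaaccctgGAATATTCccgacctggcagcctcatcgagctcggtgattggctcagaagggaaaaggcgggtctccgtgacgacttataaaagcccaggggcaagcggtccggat
HSPA1B: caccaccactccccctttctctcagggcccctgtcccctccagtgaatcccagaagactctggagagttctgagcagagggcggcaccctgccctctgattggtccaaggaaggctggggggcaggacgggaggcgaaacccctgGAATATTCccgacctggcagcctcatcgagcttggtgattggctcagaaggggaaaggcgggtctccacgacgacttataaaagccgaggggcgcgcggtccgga
HSPB1: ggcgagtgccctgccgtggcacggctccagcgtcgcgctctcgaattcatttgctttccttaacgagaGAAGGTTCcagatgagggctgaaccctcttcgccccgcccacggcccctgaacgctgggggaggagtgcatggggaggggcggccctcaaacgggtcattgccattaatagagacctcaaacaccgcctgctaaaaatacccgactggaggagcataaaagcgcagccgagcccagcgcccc
HSP90AA1: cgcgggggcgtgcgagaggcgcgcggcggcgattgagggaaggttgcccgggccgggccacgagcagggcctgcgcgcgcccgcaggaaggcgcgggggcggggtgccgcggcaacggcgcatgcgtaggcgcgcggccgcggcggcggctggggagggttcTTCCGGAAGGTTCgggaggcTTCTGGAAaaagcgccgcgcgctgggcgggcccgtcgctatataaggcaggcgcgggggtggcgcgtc

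The HSPA1A and HSPA1B stretches were identical at 235 of 251 aligned columns (93.63%), and both held the element of 2 units, GAATATTC in each, about as far from the start (from -106 and from -105). Elements of 3 units stood in front of a listed start of 4 of the 10 genes: HSPA8, HSP90AA1, HSP90AB1 and HSPD1. The windows of the other listed starts of HSP90AA1, HSP90AB1 and HSPD1 held none. Those other starts lie upstream of the elements, and which starts these cells use was not analysed. For HSPA8 (minus strand of chromosome 11, start 123062136) there were 2, from -230 and from -55, and for the third listed start of HSP90AB1 (plus strand of chromosome 6, start 44247943) there were 2, from -165 and from -112. For the second listed start of HSPD1 (minus strand of chromosome 2, start 197499840), 2 overlapping elements ran from -245 to -228. Short stretches around them are given for comparison.
HSPA8, chr11:123062346-123062374: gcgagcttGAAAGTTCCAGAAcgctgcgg
HSPA8, chr11:123062171-123062199: cgggccccTTCTGGAAGGTTCtaagatag
HSP90AB1, chr6:44247770-44247798: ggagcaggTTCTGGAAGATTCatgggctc
HSP90AB1, chr6:44247823-44247851: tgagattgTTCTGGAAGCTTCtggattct
HSPD1, chr2:197500063-197500090: gcattTTCTGGAAAGTTCTGGAAccgag

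Among all 35116 RefSeq promoter windows of the same length (250 bases before to 50 after the start), the 3-unit element was in 0.49%, the 2-unit head-to-head form, which every 3-unit element contains, in 6.77% and the 2-unit tail-to-tail form in 7.74%. The head-to-head form was in front of a listed start of 8 of the 10 genes, all but HSPH1 and HSPE1. Counted by window, as the background is, it was in 9 of the 16 windows of the members and the 3-unit element in 4 of 16. These are matches of letters and were not compared with any binding data. HSPD1 and HSPE1 lie head to head on chromosome 2 and are read in opposite directions, with listed starts 105 or 539 bases apart, and the HSPD1 elements end 294 bases before the HSPE1 start.

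At 12 hours 3 of the 10 transcripts were higher than at time 0 (HSPB1, HSP90AA1 and HSPH1) and 1 was lower (HSPD1) by the quasi-likelihood test of edgeR with Benjamini-Hochberg adjustment over all genes at 0.05. At 24 hours 5 were higher (HSPB1, HSPH1, HSPA1B, HSP90AA1 and DNAJB1) and HSPD1 was again lower, and between 12 and 24 hours 3 rose (HSPA1B, HSPH1 and HSP90AA1) and none fell. Of all genes tested, 4.85% were higher and 6.75% lower at 12 hours, 7.82% higher and 8.49% lower at 24 hours, and 1.12% higher and 1.61% lower at 24 than at 12 hours. Of the 10 members, 3, 5 and 3 were called higher and 1, 1 and 0 lower. These shares were not tested against the background, because the members were chosen with earlier results of these data known. The background also holds genes with few counts, in which small changes are called less readily. No member reached the 1.5-fold change that 1.05%, 2.45% and 0.18% of all genes reached with the same adjusted p in the 3 comparisons: the largest rise, that of HSPB1, was 1.36-fold. Without the first time-0 library, 1 member passed the edgeR test at 12 hours and 4 at 24 hours. From 12 to 24 hours, 0 passed it without the third 12-hour, the second 24-hour or the third 24-hour library, where 3, 3 and 4 were higher at an unadjusted p under 0.05. At 12 hours 2 passed without the third 12-hour library and 2 without the third 24-hour library. By DESeq2, 4, 7 and 3 members passed in the 3 comparisons, and 0 were lower at 24 than at 12 hours, as by unadjusted edgeR p. The 24-hour and 12-hour comparisons share the time-0 libraries, and the 24-against-12-hour comparison shares libraries with both. In bulk RNA, more transcript per cell and more cells that express a gene cannot be told apart.

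The median log2 change of the 10 genes was 0.10 at 12 hours, 0.24 at 24 hours and 0.070 from 12 to 24 hours, where the median over all genes tested was -0.00069, -0.0031 and 0.0035. The 24-hour libraries all lay above the time-0 libraries for 6 of the 10 genes and all below for 1 (HSPD1), and groups of all genes were apart in either direction for 43.2%. Together the 10 genes took 0.823% and 0.845% of all counts in the time-0 libraries, 0.861%, 0.893% and 0.868% at 12 hours, and 0.899%, 0.896% and 0.905% at 24 hours. The share was lowest in both time-0 libraries and highest in the 24-hour libraries, with no overlap between the 3 groups.

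**Figure D1:**
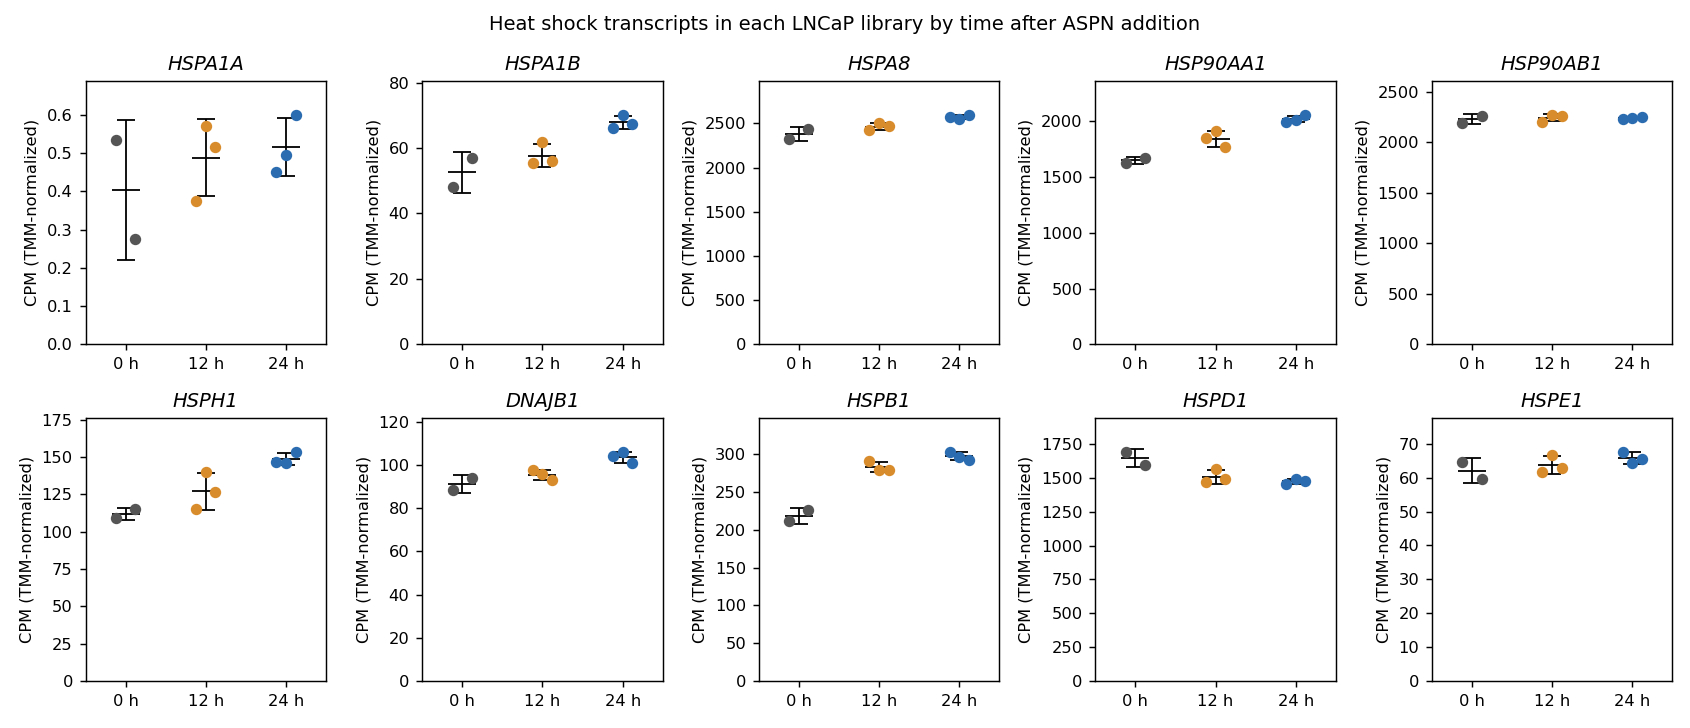
Level of each transcript in each of the 8 libraries (vertical axis, CPM from 0, with its own scale per gene) at 0, 12 and 24 hours after ASPN addition; points are libraries, the bar is the mean and the whiskers the SD (n = 2, 3 and 3). HSPB1 stands higher from 12 hours on, HSP90AA1 and HSPH1 climb in both steps, HSP90AB1 is level and HSPD1 is lower after time 0.

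HSPA8 (chr11:123057489-123063230, minus strand) encodes the constitutive cytosolic HSP70 that every cell uses for folding, uncoating of vesicles and protein targeting. It measured 2322 and 2439 CPM at time 0, 2420, 2503 and 2467 CPM at 12 hours and 2569, 2555 and 2591 CPM at 24 hours. The 24-hour libraries were above all the others, by a small step. The log2 change was 0.050 ± 0.039 (SE) at 12 hours (edgeR adjusted p = 0.499) and 0.11 ± 0.040 at 24 hours (adjusted p = 0.0511), just past the threshold of 0.05. Without the first time-0 library the 24-hour change was 0.072 (adjusted p = 0.432). It passed at 24 hours in 8 of 16 alternatives, among them DESeq2 (adjusted p = 0.0109) and the edgeR fit without the second time-0 library (0.0201), the first 12-hour library (0.0151) or the second 12-hour library (0.0298). Small nucleolar RNAs in its introns and an antisense RNA overlap 15.05% of its annotated exon bases, and that antisense RNA had only 4 to 29 counts per library.

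HSPA1B and HSPA1A encode the stress-inducible HSP70, as 2 intronless genes 1 after the other on chromosome 6 (chr6:31827738-31830254 and chr6:31815543-31817946, both plus strand). HSPA1B measured 48.2 and 57.0 CPM at time 0, 55.4, 61.9 and 55.9 CPM at 12 hours and 66.2, 70.0 and 67.5 CPM at 24 hours. The 12-hour libraries overlapped those of time 0, while the 24-hour libraries were above all others. HSPA1B rose by 24 hours (log2 change 0.37 ± 0.061, 1.29-fold, edgeR adjusted p = 3.99e-05), with 0.23 ± 0.054 of it from 12 to 24 hours (adjusted p = 0.0122). Its change at 12 hours was 0.14 ± 0.061 (adjusted p = 0.170). That change was 0.27 (adjusted p = 0.00687) without the second time-0 library, 0.017 (adjusted p = 0.946) without the first and 0.082 (adjusted p = 0.471) without the second 12-hour library. The step from 12 to 24 hours lost its call without the third 12-hour library (adjusted p = 0.0975) or without the second (0.134) or the third (0.0638) 24-hour library.

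HSPA1A had 47 and 20 counts in the time-0 libraries, 29, 51 and 45 at 12 hours and 41, 48 and 44 at 24 hours, where HSPA1B had 4146 to 6772. All 3 groups overlapped. Its log2 change at 24 hours was 0.33, but with an SE of 0.37 (edgeR adjusted p = 0.634), and its 95% interval from -0.39 to 1.05 holds the change of HSPA1B. HSPA1A took between 0.480% (exact 95% interval 0.294% to 0.741%) and 1.10% (0.805% to 1.45%) of the counts of the pair, intervals that cover counting error only. The transcripts were identical at 91.42% of 2529 aligned columns, and 72.4% of the 100-base windows of the HSPA1A transcript also occur in HSPA1B. A read pair that lies wholly in shared sequence cannot be assigned to 1 gene, and how such pairs were counted is not given in the sources used here, so each value of the pair is uncertain. With both genes summed, the change at 24 hours was 0.37 (edgeR adjusted p = 3.62e-05). HSPA1A is so small a part of the pair that the sum had to repeat HSPA1B. Read pairs that were not counted are not restored by it, so this uncertainty remains. A long noncoding RNA annotated on the same strand also covers 36.55% of the HSPA1B exon bases, and its own counts were not analysed here.

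HSP90AA1, the inducible cytosolic HSP90 (chr14:102080742-102139699, minus strand), and HSP90AB1, the constitutive form (chr6:44246166-44253888, plus strand), went apart. HSP90AA1 measured 1624 and 1674 CPM at time 0, 1847, 1911 and 1772 CPM at 12 hours and 1998, 2009 and 2054 CPM at 24 hours. No group overlapped another, and each was above the one before. HSP90AA1 rose by 0.16 ± 0.041 (log2, SE; adjusted p = 0.00826) at 12 hours, 0.29 ± 0.041 (adjusted p = 3.28e-06) at 24 hours and 0.13 ± 0.037 (adjusted p = 0.0434) between them, a 1.22-fold change over the whole course. The 12-hour call was lost without the first time-0 library (adjusted p = 0.138). The step from 12 to 24 hours was lost with a filter on a mean of 100 counts (adjusted p = 0.0537) and among protein-coding genes alone (0.0602), without the third 12-hour library (0.306) and without the first (0.135), second (0.205) or the third (0.239) 24-hour library.

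HSP90AB1 measured 2193 and 2265 CPM at time 0, 2202, 2268 and 2264 CPM at 12 hours and 2227, 2241 and 2250 CPM at 24 hours. The groups overlapped throughout. Its log2 change at 24 hours was 0.0069, with a 95% interval of -0.070 to 0.083 (edgeR adjusted p = 0.943), an interval that ends below the change of HSP90AA1. Within each library the ratio of HSP90AA1 to HSP90AB1 counts, which no scaling of the library totals can alter, was 0.741 and 0.739 at time 0, 0.839, 0.843 and 0.783 at 12 hours and 0.897, 0.897 and 0.913 at 24 hours. The 3 groups did not overlap. An exact permutation test of the F statistic over the 8 libraries gave p = 0.00714 (560 arrangements, smallest possible p = 0.00179). Adjusted over the 4 ratios examined it was 0.00952, and all 4 ratios were chosen after the values were seen.

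**Figure D2:**
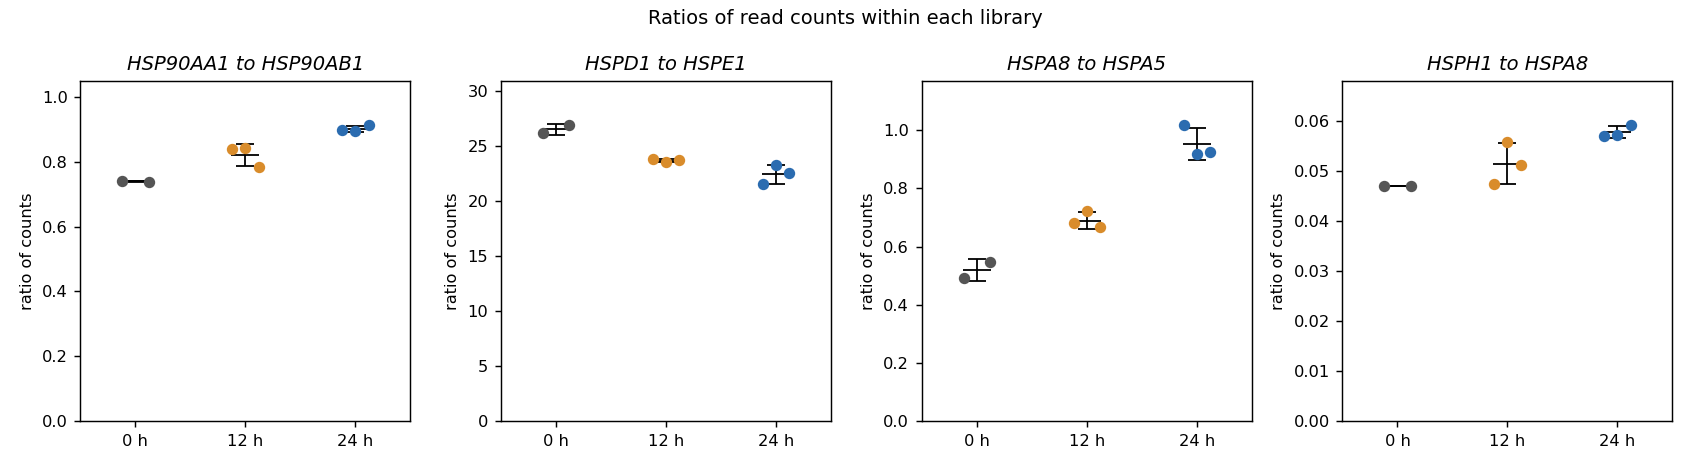
Ratios of read counts of 2 genes within each library at 0, 12 and 24 hours (vertical axis from 0, with its own scale per ratio); points are libraries, the bar is the mean and the whiskers the SD (n = 2, 3 and 3). The HSP90AA1 to HSP90AB1 and HSPA8 to HSPA5 ratios climb at both steps, and the HSPD1 to HSPE1 ratio falls.

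HSPH1 (chr13:31134973-31162388, minus strand) encodes HSP110, a nucleotide exchange factor for HSP70 that also takes part in breaking up aggregates. It measured 109 and 115 CPM at time 0, 115, 140 and 127 CPM at 12 hours and 147, 146 and 153 CPM at 24 hours. The first 12-hour library was level with the second time-0 library, and the 24-hour libraries were above all others. HSPH1 rose by 0.41 ± 0.057 (log2, SE) over 24 hours, a 1.33-fold change (edgeR adjusted p = 3.82e-06), with 0.18 ± 0.057 of it at 12 hours (adjusted p = 0.0335) and 0.23 ± 0.051 between 12 and 24 hours (adjusted p = 0.00979). The 12-hour call was the weaker: it was lost when only those groups were fitted (adjusted p = 0.0848), without the first time-0 library (0.384), without the second (0.199) or the third (0.0625) 12-hour library, and without the third 24-hour library (0.0534). The later step was lost without the third 12-hour library (adjusted p = 0.0522) or the second (0.0519) or the third (0.0980) 24-hour library.

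Beside its HSP70 partner, HSPH1 gained: the ratio of HSPH1 to HSPA8 counts was 0.0471 in both time-0 libraries, 0.0475, 0.0559 and 0.0513 at 12 hours and 0.0570, 0.0573 and 0.0592 at 24 hours. The 24-hour ratios were above all the others, and the 12-hour ratios were spread between. The exact permutation test gave p = 0.0393 (0.0393 after adjustment over the 4 ratios). This ratio was chosen after the values were seen, which the adjustment does not cover.

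DNAJB1 (chr19:14514769-14560391, minus strand) encodes HSP40, the stress-inducible J-domain partner of HSP70. It measured 88.3 and 94.1 CPM at time 0, 97.8, 95.7 and 93.2 CPM at 12 hours and 104, 106 and 101 CPM at 24 hours. The 24-hour libraries were above all others, and those of 12 hours overlapped time 0. DNAJB1 rose by 0.18 ± 0.048 (log2, SE) at 24 hours, 1.14-fold (edgeR adjusted p = 0.00679), and the changes at 12 hours (0.067, adjusted p = 0.441) and from 12 to 24 hours (0.12, adjusted p = 0.163) did not pass the test. Without the first time-0 library the 24-hour change was 0.13 (adjusted p = 0.178). Its exons share 6.41% of their bases with TECR, which is read from the other strand.

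HSPB1 (chr7:76302673-76304295, plus strand), which encodes HSP27, a small heat shock protein that holds unfolded proteins and binds actin, had the largest rise of the 10. It measured 211 and 226 CPM at time 0, 291, 279 and 279 CPM at 12 hours and 303, 297 and 292 CPM at 24 hours. All 12-hour libraries were well above those of time 0, and those of 24 hours lay just above them. HSPB1 rose by 0.37 ± 0.045 (log2, SE) at 12 hours (1.29-fold, edgeR adjusted p = 9.36e-07) and 0.44 ± 0.045 at 24 hours (1.36-fold, adjusted p = 9.01e-09), while the step from 12 to 24 hours, 0.072 ± 0.039, did not pass the test (adjusted p = 0.445). Both calls held in all 16 alternative analyses, with adjusted p of at most 0.000434 at 12 hours and at most 8.40e-06 at 24 hours. No exon of another gene overlapped it.

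HSPD1 (chr2:197486584-197516737, minus strand) encodes HSP60, the chaperonin of the mitochondrial matrix, and was the 1 member that fell. It measured 1692 and 1599 CPM at time 0, 1468, 1567 and 1495 CPM at 12 hours and 1455, 1495 and 1475 CPM at 24 hours. Both time-0 libraries were above all later ones, and the 12- and 24-hour libraries overlapped. The log2 change was -0.12 ± 0.041 (SE) at 12 hours (edgeR adjusted p = 0.0477), -0.16 ± 0.041 at 24 hours (adjusted p = 0.00711) and -0.034 ± 0.037 between them (adjusted p = 0.771). The 12-hour call did not hold with RLE scaling (adjusted p = 0.0624), with only those groups in the fit (0.150), without the low-count filter (0.0898), with a filter on a mean of 100 counts (0.0528) or among protein-coding genes alone (0.0537). It was also lost without the first time-0 library (adjusted p = 0.477), the first (0.117) or the third (0.159) 12-hour library, or the first (0.0759), second (0.108) or the third (0.0827) 24-hour library. The 24-hour call was lost only without the first time-0 library (-0.12, adjusted p = 0.141) among 16 alternatives.

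HSPE1 (chr2:197500140-197503449, plus strand) encodes HSP10, the lid of the HSP60 chamber. It measured 64.7 and 59.5 CPM at time 0, 61.7, 66.6 and 63.0 CPM at 12 hours and 67.6, 64.2 and 65.5 CPM at 24 hours. The groups overlapped, and the change at 24 hours was 0.083 on the log2 scale, with a 95% interval of -0.021 to 0.19 (edgeR adjusted p = 0.341). The ratio of HSPD1 to HSPE1 counts was 26.2 and 26.9 at time 0, 23.8, 23.5 and 23.7 at 12 hours and 21.5, 23.3 and 22.5 at 24 hours. It was lower in every later library, with each group below the one before and no overlap (exact permutation p = 0.00357, adjusted p over the 4 ratios = 0.00714). The choice of this ratio, too, was made after the values were seen, so the p-value only describes these libraries. HSPE1 shares 31.66% of its 100-base windows with other genes, mostly with the read-through gene HSPE1-MOB4, which had 2 to 15 counts per library, and HSPE1 pseudogenes together had 0.580% of its counts. With HSPE1-MOB4 added to it, the number of members called was the same in all 3 comparisons, which does not restore reads that were not counted. HSPE1 exons also share 7.405% of their bases with HSPD1, which is read from the other strand. How reads there were counted is not given in the sources used here, and its part in the ratio was not tested.

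**Figure D3:**
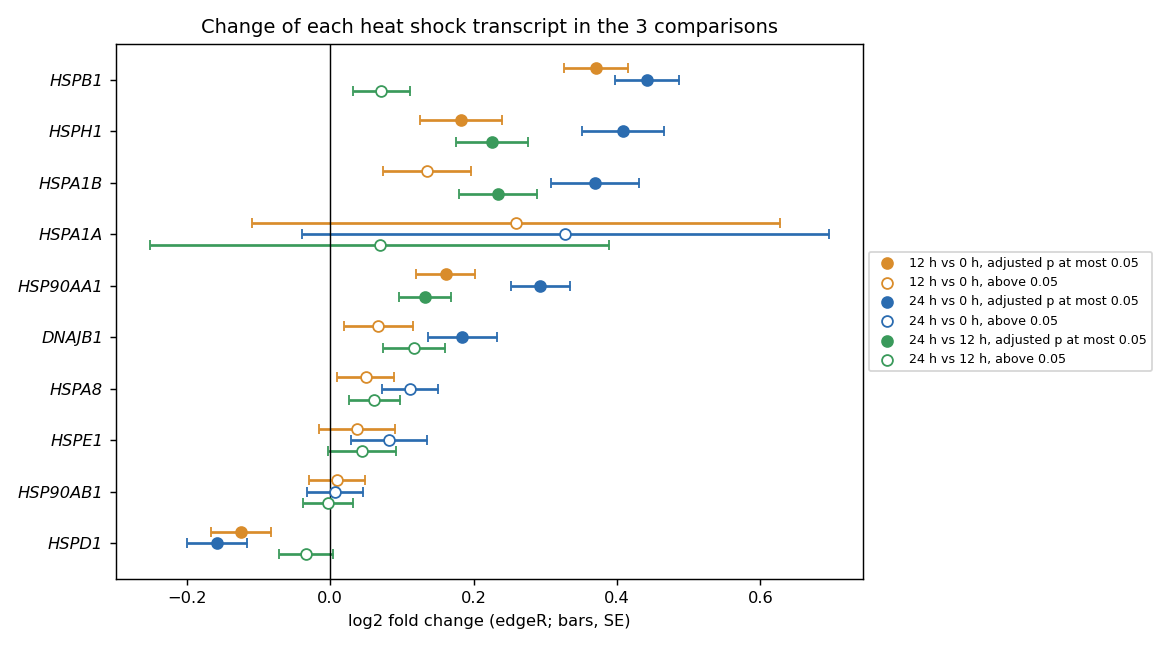
Log2 fold change of each of the 10 transcripts with its SE (horizontal axis) for 12 against 0 hours, 24 against 0 hours and 24 against 12 hours, sorted by the 24-hour change; filled points had an adjusted p of at most 0.05. HSPB1 has its change by 12 hours, HSPA1B, HSPH1 and HSP90AA1 have filled points for 24 against 12 hours, and only HSPD1 lies below 0 with a filled point.

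Levels can be compared between genes only per length. Per kb of the canonical transcript, the order at time 0 was HSPA8 (1051 CPM per kb), HSP90AB1 (872), HSPD1 (733), HSP90AA1 (511), HSPB1 (282), HSPE1 (112), DNAJB1 (40.7), HSPH1 (21.4), HSPA1B (20.9) and HSPA1A (0.169). The ranges of neighbouring genes overlapped only for HSPH1 (20.8 to 21.9) and HSPA1B (19.2 to 22.7). At 24 hours HSPD1 (657 CPM per kb, 648 to 666) was still above HSP90AA1 (626, 619 to 636), and HSPH1 (28.4, 27.9 to 29.3) was above HSPA1B (27.0, 26.3 to 27.8). Reads in sequence shared by HSPA1A and HSPA1B make the levels of both, and their places in the order, uncertain. The order depends on the length used: over all annotated exon bases of a gene, HSP90AB1 (748 CPM per kb at time 0) was above HSPA8 (491), and at 24 hours HSP90AA1 (396) was above HSPD1 (193) and HSPA1B (27.0) above HSPH1 (17.7).

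Across the 8 libraries, log2 CPM of HSPA1B and HSPA8 had a Pearson r of 0.969, the highest of all pairs of members. That of HSPH1 and HSPA8 was 0.954, and the lowest was -0.935, for HSPB1 and HSPD1. The protein-coding genes most like HSPA8 were SLC46A1 (r = 0.989), RCAN3 (0.984) and TUBB (0.982), and those most like HSPD1 were CLDND1 (0.991), XIAP (0.987) and ZNF430 (0.987), each the highest of 11575 candidates over 8 libraries. These values describe the libraries, which share their time points and scaling.

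The genes that work with these chaperones were read from 9 lists, chosen with earlier results of these data known. Over all genes tested, 4.85% were higher and 6.75% lower at 12 hours, and 7.82% higher and 8.49% lower at 24 hours. The most genes to rise came from the HSP90 co-chaperones, of which 6 of 12 rose by 24 hours and none fell: FKBP4, a steroid receptor co-chaperone (log2 change 0.43 ± 0.045, adjusted p = 1.38e-08), FKBP5, STIP1, which joins HSP70 to HSP90, AHSA1, which activates the HSP90 ATPase, CDC37, which brings kinases, and CHORDC1. The range of the 12 was -0.13 to 0.43 and the median 0.12, and the count lower was 0 also at an unadjusted p under 0.05 and by DESeq2. CDC37 was near the threshold (edgeR adjusted p = 0.0459). Without the third 12-hour library, or without any 1 of the 24-hour libraries, 5 of the 12 passed. Without the first 24-hour library 1 was lower at an unadjusted p under 0.05. Without the first time-0 library 4 of the 12 passed. FKBP4, STIP1 and AHSA1 had risen by 12 hours, a count that was 1 without the first time-0 library, 2 without the third 12-hour library, and 5 without the second time-0 or the first 12-hour library and by DESeq2. CHORDC1 was the 1 that rose between 12 and 24 hours (0.27 ± 0.050, adjusted p = 0.00120).

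Among 8 other J-domain proteins, DNAJA1, the partner of HSP70 in the cytosol, rose (0.37 ± 0.046 at 24 hours, adjusted p = 3.48e-07), DNAJB5 fell (-0.43, adjusted p = 1.51e-05) and 6 did not pass the test. A count of 1 in a list of 8 is too small to set against the shares over all genes, and describes that gene only. Of 9 HSP70 and HSP110 relatives, HSPA4 (0.18, adjusted p = 0.00646) and HSPA12B (means of 0.257 CPM at time 0 and 0.648 CPM at 24 hours, log2 change 1.35 ± 0.39, adjusted p = 0.0145) rose and HSPA13, a microsome-associated HSP70, fell (-0.89 ± 0.074, adjusted p = 1.03e-07). Without the first time-0, the second time-0 or the first 24-hour library, 1 relative in place of 2 was higher. HSPA6, an HSP70 that is nearly silent without strong heat stress, was at 0.751 CPM at time 0 and 0.537 CPM at 24 hours (log2 change -0.50 ± 0.33, adjusted p = 0.352). Of 8 exchange and hand-over factors only the ubiquitin ligase STUB1 rose (0.21 ± 0.051, adjusted p = 0.00333), and BAG3, an HSF1 target that exchanges the nucleotide of HSP70, had a change of 0.052 ± 0.049 (adjusted p = 0.549). STUB1 lost its call without the first time-0 library (adjusted p = 0.143).

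The chaperonin of the cytosol, CCT, had 3 of 8 subunits higher at 24 hours (CCT2, CCT3 and CCT6A), with CCT3 at 0.16 ± 0.041 (adjusted p = 0.00696), and none lower. Lower subunits also numbered 0 at an unadjusted p under 0.05 and by DESeq2. Over all genes tested, 7.82% were higher and 8.49% lower at 24 hours. Without the first time-0 library no subunit passed the edgeR test (CCT3, adjusted p = 0.170), while 3 were higher at an unadjusted p under 0.05. Of 8 further small heat shock genes 4 were in the table and none of them passed the edgeR test or DESeq2 at 24 hours (CRYAB, HSPB6, HSPB8 and HSPB11), with 1 higher and 1 lower at an unadjusted p under 0.05. Of the heat shock factors, HSF1 itself was higher at 24 hours (0.15 ± 0.047, adjusted p = 0.0261) and at 12 hours (0.16 ± 0.047, adjusted p = 0.0184), and HSF2 was not (0.041 at 24 hours, adjusted p = 0.777). HSF1 lost both calls without the first time-0 library (adjusted p = 0.350 and 0.319), the 12-hour call also with only those groups in the fit (0.0694), and the 24-hour call also without the first (0.0773), second (0.0713) or the third (0.0880) library of that group.

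In the mitochondria HSPD1 was not alone in falling. Of 11 further mitochondrial chaperones and proteases, 4 were lower at 24 hours and none higher: HSPA9, the HSP70 of the matrix (-0.30 ± 0.042, adjusted p = 2.38e-06), its exchange factor GRPEL2 (-0.35), and the proteases LONP1 (-0.25) and YME1L1 (-0.20). The median of the 11 was -0.077, and over all genes tested 8.49% were lower and 7.82% higher at 24 hours. None was higher at an unadjusted edgeR p under 0.05 or by DESeq2 with adjustment, and 3 were lower without the first time-0 library. TRAP1, the HSP90 of mitochondria, had a change of 0.080 (adjusted p = 0.256).

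The chaperones of the endoplasmic reticulum (ER) fell, where 8.49% of all genes tested were lower at 24 hours. All 7 ER counterparts were lower at 24 hours (median log2 change -0.67, range -0.85 to -0.41), all 7 were lower at 24 than at 12 hours, 6 of 7 were lower at 12 hours, and 5 passed 1.5-fold at 24 hours. All 7 passed at 24 against 0 hours with any 1 library left out. At 24 against 12 hours 3 passed without the first 24-hour library, 5 without the third 12-hour library, and 6 without the second 12-hour or the third 24-hour library, each with all 7 lower at an unadjusted p under 0.05. HSPA5 (BiP), the HSP70 of the ER, fell from a mean of 4596 CPM at time 0 to 3577 CPM at 12 hours and 2703 CPM at 24 hours (-0.77 ± 0.044, adjusted p = 1.24e-13), and HSP90B1 (GRP94), the HSP90 of the ER, from 4032 to 3399 and 3042 CPM (-0.41 ± 0.045, adjusted p = 4.49e-08). The starvation medium held no calcium in all groups, and its part in these values was not tested.

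The ratio of HSPA8 to HSPA5 counts, cytosolic against ER HSP70 in the same library, was 0.492 and 0.546 at time 0, 0.680, 0.722 and 0.666 at 12 hours and 1.02, 0.917 and 0.927 at 24 hours. The 3 groups were well apart (exact permutation p = 0.00357, adjusted p over the 4 ratios = 0.00714). As with the other ratios, the pair was chosen after the values were seen, so the p-value only describes these libraries. None of the 7 ER genes had a heat shock element of 2 or 3 units in its promoter window. Over all windows the 3-unit, head-to-head and tail-to-tail forms were in 0.49%, 6.77% and 7.74%. Absence from 7 windows does not set these genes apart from that background. None of the 10 members had the ER stress element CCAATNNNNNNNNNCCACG, which was in 0.0769% of all windows and in 2 of the 7 ER genes. It is shown in capitals for HSPA5 (minus strand, start 125241343), where it ran from -66 to -48.
HSPA5, chr9:125241386-125241414: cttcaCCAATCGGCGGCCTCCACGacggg

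**Figure D4:**
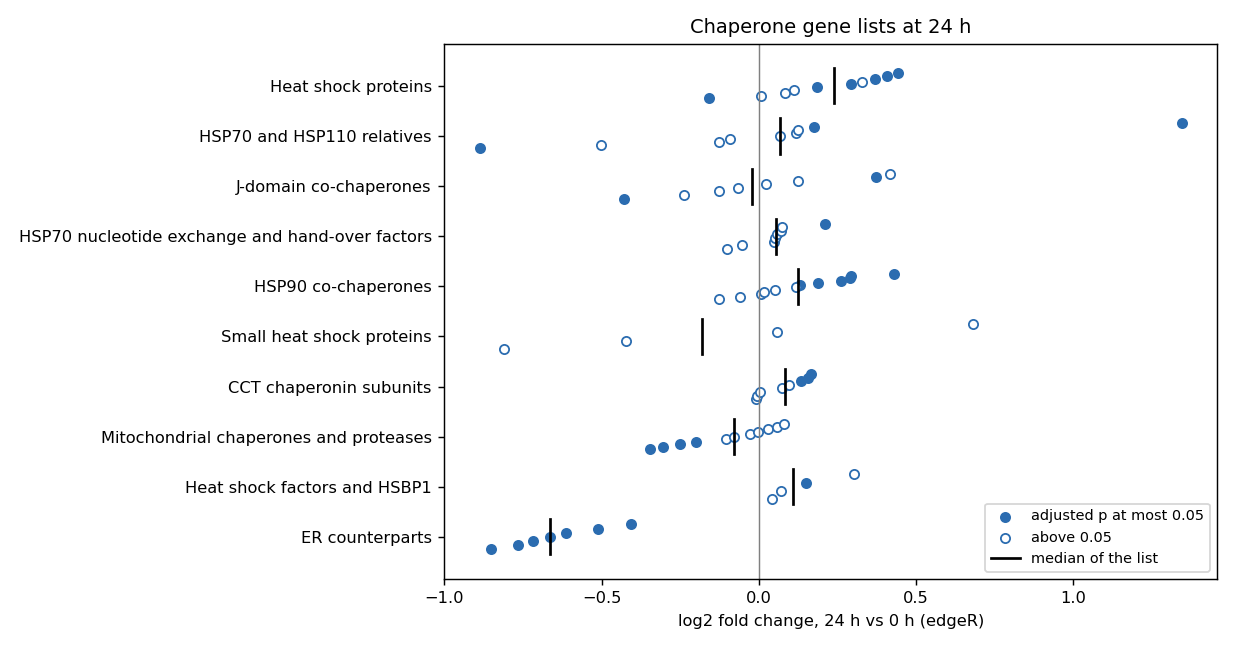
Log2 fold change at 24 against 0 hours (horizontal axis) of every tested gene of the 10 members and of 9 chaperone lists; filled points had an adjusted p of at most 0.05 and the black line is the median of the list. The ER counterparts are all filled and left of 0, the HSP90 co-chaperones have filled points only to the right and the mitochondrial list only to the left.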

How the data were processed

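mRNA libraries (TruSeq) of LNCaP cells were sequenced in paired 150-base reads. Per the study's methods, the authors trimmed reads with Cutadapt, aligned them with STAR to GRCh38, and counted them per gene of GENCODE with featureCounts. They left out 1 time-0 library on quality. Strand, pair and multi-mapping options are not given in the sources used here. What they deposited is 1 table of raw counts, with 36474 genes and 8 libraries.

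Counts were tested with edgeR 4.0.16 (R 4.3.3): TMM scaling, filterByExpr (21071 genes kept), 1 coefficient per time point over all 8 libraries and the robust quasi-likelihood test, with Benjamini-Hochberg adjustment over all genes and calls at an adjusted p of 0.05. The fit used all groups because time 0 has 2 libraries. The biological coefficient of variation was 5.588%. Alternatives were RLE scaling, no filter or a mean of 100 counts, DESeq2 1.42.0, the compared groups alone, protein-coding genes only, summed near copies, a replicate block and leaving out each library; scaling factors without chaperone genes and the ratios were added after seeing the data. The test was checked on simulated counts of 20472 genes with changes placed at 24 hours only: at 24 against 0 hours it recovered 58.33% of genes changed 1.5-fold and 68.37% of those changed 2-fold, with 13 unchanged genes called, and at 12 against 0 hours, where no gene was changed, it called 2. Recovery of changes at 12 hours was not simulated. Pearson correlations of same-numbered libraries' deviations from their group means ran from -0.149 to 0.102, so the numbers were not used to pair libraries.

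The 10 members and all lists were chosen with earlier results of these data known. Named genes were the members, HSF1, HSF2, HSPA9, HSPA5, HSP90B1, HSPA6 and BAG3, the gene of each list with the smallest p at 24 hours among those called with a mean of at least 100 counts, and the 3 genes most correlated with HSPA8 and with HSPD1. Other genes named from the lists were chosen after their values were seen. Gene positions came from GENCODE 44, in which all 10 members have the coordinates of the deposited table, and promoters from RefSeq. Some LNCaP markers are not reported here.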

Additional observations from a re-analysis of the deposited data

Results flagged for a closer look

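Of 28 named genes tested, 9 changed by different amounts by 12 and by 24 hours, by the edgeR test of 24 against 12 hours. Over all genes tested, 1.12% were higher and 1.61% lower in that comparison. Part of the 28 were named by their values in these same libraries, so the 2 shares cannot be compared. Among the heat shock genes these were HSPA1B (0.23 on the log2 scale, adjusted p = 0.0122), HSPH1 (0.23, adjusted p = 0.00979) and HSP90AA1 (0.13, adjusted p = 0.0434), all higher at 24 hours. Among the others, DNAJA1 (0.20, adjusted p = 0.00449), RCAN3 (0.22, adjusted p = 0.0272) and TUBB (0.15, adjusted p = 0.0477) were higher at 24 hours. HSPA5 (-0.40, adjusted p = 9.39e-08), HSPA13 (-0.30, adjusted p = 0.0194) and HSP90B1 (-0.16, adjusted p = 0.0221) were lower. RCAN3 lost its call without any of 5 libraries, among them the first 12-hour library (adjusted p = 0.140), and TUBB in 9 of 16 alternatives, among them RLE scaling (adjusted p = 0.0593) and the fit without the first 12-hour library (log2 change 0.096, adjusted p = 0.220). HSP90B1 lost it without the first (adjusted p = 0.236) or the third (0.0753) 24-hour library or the third 12-hour library (0.0756), HSPA13 without the first (0.0588) or the second (0.108) 12-hour library or the first 24-hour library (0.0607), and DNAJA1 without the second 24-hour library (0.0634).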

How the results depend on the processing

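The number of members called was 4 at 12 hours, 6 at 24 hours and 3 from 12 to 24 hours. It fell to 2 at 12 hours with only those groups in the fit, with the replicate block (which takes the numbers in the column names) and at an adjusted p of 0.01, and to 1 from 12 to 24 hours at an adjusted p of 0.01. Leaving out each library in turn gave 1 to 5, 4 to 7 and 0 to 3 members called. With 1 time-0 library left, that library is assumed to vary like the other groups. No other alternative moved the number of members called by over 1.5 times, and none gave a member at 1.5-fold. With the block, HSPH1 (adjusted p = 0.114) and HSPD1 (0.0548) lost their 12-hour calls and HSP90AA1 (0.0900) its call from 12 to 24 hours. Among the other named genes the block ended the calls of DNAJA1 (0.0542) and STUB1 (0.0598) at 12 hours, HSF1 (0.0555) at 24 hours and TUBB (0.0638) from 12 to 24 hours. By DESeq2, 5 HSP90 co-chaperones in place of 3 were higher at 12 hours. Scaling factors computed without the chaperone genes, added after seeing the data, left all 3 counts as they were.

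Over the named genes and their alternatives, 1226 values kept direction and side of the threshold, 79 lost it, 17 gained it and 18 changed sign, all 18 when 1 library was left out. Those that changed sign were not called in any comparison concerned. Their log2 changes with each library left out ran from -0.014 to 0.044 at 12 hours, -0.021 to 0.036 at 24 hours and -0.022 to 0.0045 between them for HSP90AB1, and from -0.11 to 0.83, -0.051 to 0.89 and -0.089 to 0.20 for HSPA1A. HSPE1 ran from -0.010 to 0.10 at 12 hours and HSF2 from -0.0036 to 0.081 at 24 hours. From 12 to 24 hours HSPA6 ran from -0.35 to 0.19, BAG3 from -0.015 to 0.0019 and ZNF430 from -0.057 to 0.0058.

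Depth limits the precision of HSPA1A, at 20 to 51 counts per library, where the other members had at least 4146.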
